A study of Mus musculus with 4 samples.

Results

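The AP-1 and EGR immediate-early genes encode transcription factors whose transcripts can accumulate within minutes of a stimulus, without new protein synthesis. A total of 10 genes were followed in mouse embryonic stem cells after 1 h of bone morphogenetic protein 2 (BMP-2): Fos, Fosb, Fosl1 and Fosl2 of the FOS family, Jun, Junb and Jund of the JUN family, and Egr1, Egr2 and Egr3 of the EGR family. The genes were picked by family, with earlier results of these data known, and their probe sets are all those that the platform annotation assigns to exactly 1 of them, whatever their signal. This gave 16 of the 45101 probe sets on the array, for 10 of the 18194 genes that have a probe set of their own, with 1 probe set for each of 4 genes and 2 for each of the other 6. The comparison asked whether these genes, which respond to serum, growth factors and handling, differed between treated and untreated cells at 1 h.

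The cells were E14Tg2A.4, a subline of E14Tg2a, a mouse embryonic stem cell line that lacks Hprt, and both groups share this single line. BMP-2 at 25 ng/ml was given for 1 h to the cells of 2 arrays. The other 2 arrays are untreated controls, whose titles give no time. The labels number the arrays of each group 1 and 2 and do not say what the number stands for or whether the arrays came from separate cultures. The p-values, errors and intervals below therefore reflect only how far these arrays spread, and that spread may be technical. The arrays are one-colour Affymetrix arrays and the deposited values are MAS5 signals on a linear scale. In bulk RNA, fewer cells that express a gene and less RNA per cell cannot be told apart.

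FOS and JUN proteins pair through leucine zippers to form AP-1, which binds DNA at phorbol ester and cyclic AMP response elements. FOS proteins cannot pair stably with themselves and pair with JUN proteins in AP-1, whereas JUN proteins can also pair with one another. EGR proteins are zinc finger factors that bind GC-rich sites. Transcription of Fos and Egr1 is classically switched on by ERK, through serum response factor (SRF) and its ternary complex factor partners at CArG boxes, and by CREB at cyclic AMP response elements. In embryonic stem cells autocrine FGF4 keeps ERK signalling active. BMP receptors act mainly through SMAD1 and SMAD5, a route separate from ERK.

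The stretches upstream of the start site are shown for members whose windows hold letters that match such an element, so that the members' promoters can be compared. Sequences are from RefSeq, build GRCm38.p6, read 5′ to 3′ on the strand of the gene. Capitals mark matches to the cyclic AMP response element core TGACG on either strand, to TGACNTCA, or to the CArG box. The first 4 lines give the 110 bases before the start. For Egr2, which has 5 annotated start windows, 30 bases around the matches are given.
Fos, chr12:85473780-85473889, plus strand: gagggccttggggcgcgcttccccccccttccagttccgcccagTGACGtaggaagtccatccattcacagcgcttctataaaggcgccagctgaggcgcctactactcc
Fosb, chr7:19310046-19310155, minus strand: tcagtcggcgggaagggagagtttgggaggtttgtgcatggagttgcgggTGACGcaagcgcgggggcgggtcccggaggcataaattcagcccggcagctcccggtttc
Jun, chr4:95052223-95052332, minus strand: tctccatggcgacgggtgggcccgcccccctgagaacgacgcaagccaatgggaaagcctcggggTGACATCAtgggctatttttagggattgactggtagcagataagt
Junb, chr8:84978749-84978858, minus strand: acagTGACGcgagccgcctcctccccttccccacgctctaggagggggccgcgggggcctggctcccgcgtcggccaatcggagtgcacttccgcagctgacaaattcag
Egr2, chr10:67537793-67537822, plus strand: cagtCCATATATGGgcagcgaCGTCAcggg

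Each motif was searched on both strands of windows from 250 bases before to 50 bases after a start, over 32851 windows of all genes. The shares below count windows, whereas a member counts if any of its windows matches. Egr2 has 5 windows, so shares and member counts are not like for like. TGACG was found in 20.8% of all windows and in windows of 4 of the 7 members whose windows were read (Fos, Fosb, Junb and Egr2). TGACNTCA was found in 8.83% of windows and in Jun, and where its free base is G it also holds TGACG. The CArG box was found in 1.63% of windows and in Egr2. A GC-rich EGR site, GCGGGGGCG, was found in 2.91% of windows, and in Fosb and Fosl2. Windows of Egr1, Egr3 and Fosl1 were not read as members, so whether they hold any of these motifs is not given. These matches describe letters in the windows, and the CArG box of the Fos serum response element is known to lie farther upstream than the window searched.

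Of the 16 probe sets, 11 were bright enough to be tested, with a mean log2 signal over the 4 arrays above 5.73, a signal of 53.0. They represent 9 of the 10 genes, and no Egr2 probe set was tested. The 5 that were too dim were both Egr2 probe sets and the dimmer ones of Fosl2, Jund and Egr3. Median signals over all probe sets were 81.8 and 94.9 on the BMP-2 arrays numbered 1 and 2, and 82.5 and 94.6 on the untreated arrays. With so few arrays, precision is limited throughout. All 10 embryonic stem cell markers, among them Pou5f1, Nanog and Sox2, were bright, with summed signals of 105370 and 99850 on the BMP-2 arrays and 105316 and 99693 on the untreated arrays. Of 11 fibroblast markers on the array, which would mark feeder cells, 3 were bright enough to be tested, and the summed signal of all 11 was 689 and 892 on the BMP-2 arrays, against 751 and 756 on the untreated arrays. Of 10 primitive endoderm markers 8 were tested, and all 10 summed to 1825 and 1897 on the BMP-2 arrays, against 1662 and 1663 on the untreated arrays. Of 6 neural markers 4 were tested, and all 6 summed to 3236 and 3141 on the BMP-2 arrays, against 3532 and 3825 on the untreated arrays. No marker passed the test, and the part of other cells in the values below was not tested. The 3 probe sets for 18S ribosomal RNA on the untreated array numbered 2 read 3.94 to 6.11 times the highest value of any other array, and the range of each difference when 1 array is left out is given with the members below.

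No tested AP-1 or EGR gene passed the test between treated and untreated cells, and the brighter Jun probe set, Junb, Jund and Egr1 lay within 0.10 log2 of 0. By limma, 0 of the 11 tested probe sets passed an adjusted p of 0.05, where 0.0185% of all 27022 tested probe sets passed (5 probe sets, of Id1, Id2, Id3 and Pom121, all higher with BMP-2). At an unadjusted p under 0.05 there was 1 member, the brighter Fosl1 probe set, where 3.07% of all tested probe sets had such a p (1.91% with the higher signals in treated cells). The adjusted p was 1.00 for each of the 11. Of these, 8 were higher and 3 lower with BMP-2, where 52.2% of all tested probe sets were higher, with a median difference of 0.20 log2, against 0.01 log2 over all tested probe sets. The folds ran from 0.812 to 1.47. Without the signal limit, the median difference over all 16 member probe sets was 0.09 log2.

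**Figure D1:**
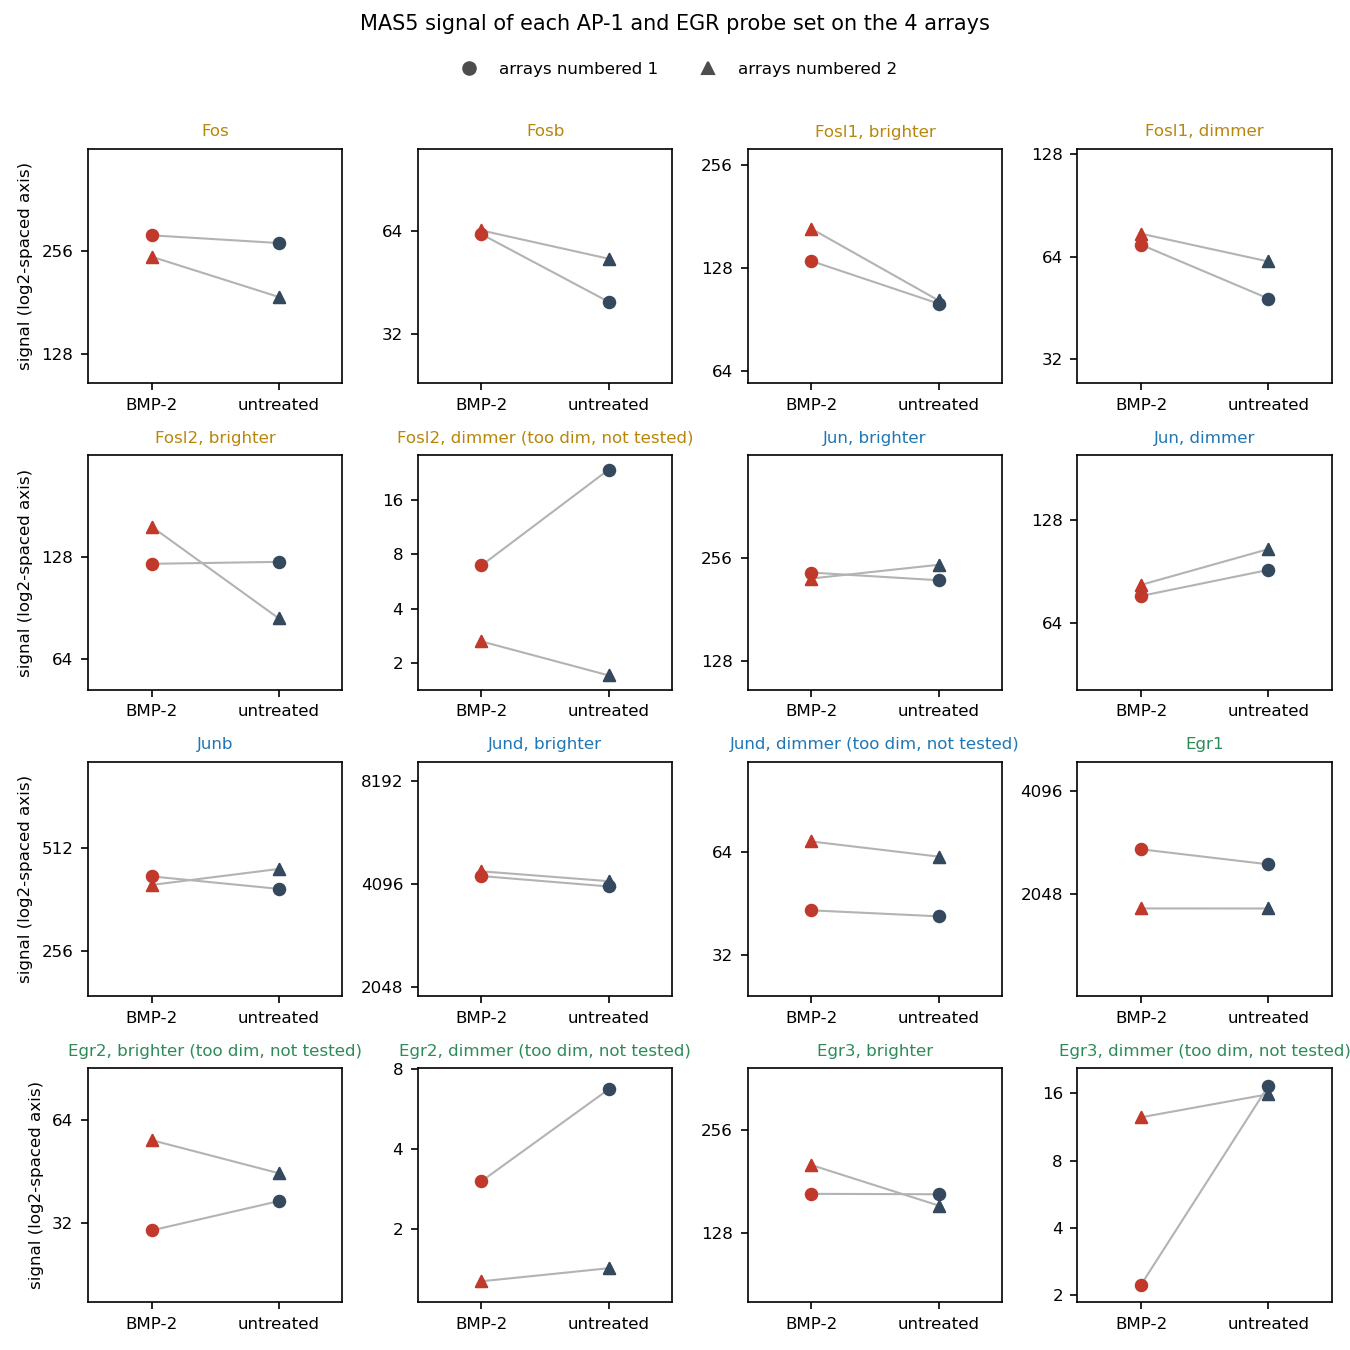
MAS5 signal of all 16 probe sets (vertical axis, spaced by log2) on BMP-2 and untreated arrays, with grey lines that join arrays of the same number (circles 1, triangles 2). In the Egr1 panel the arrays separate by number and not by treatment, at 2768 and 2502 for number 1 and 1859 and 1858 for number 2.

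The FOS family gave the values farthest above 0, and all 5 of its tested probe sets were higher with BMP-2, with a median of 0.44 log2. Among these, Fosb passed the signal limit only through its treated arrays. The Fosl2 probe set that was too dim to be tested differed by -0.57 log2. Fosl1 encodes FRA-1, a FOS protein that lacks a strong activation domain and is itself a target of AP-1 in other cell types. Its brighter probe set read 134 and 166 on the BMP-2 arrays, against 100 and 103 on the untreated arrays. Both treated arrays lay above both untreated arrays. The difference was 0.56 ± 0.25 log2 (SE, limma adjusted p = 1.00, unadjusted p = 0.0493), a fold of 1.47 with a 95% interval of 1.00 to 2.16. By unadjusted p this probe set stood at place 822 among all those tested. The dimmer Fosl1 probe set read 69.3 and 74.6 on the BMP-2 arrays and 48.2 and 61.9 on the untreated arrays, without overlap, and differed by 0.40 ± 0.36 log2 (SE, adjusted p = 1.00). With 1 array left out it ran from 0.22, without the untreated array numbered 1, to 0.58, without that numbered 2, and the brighter probe set from 0.40 to 0.71. The 2 probe sets gave the same sign, and the lower signals of the dimmer one carry the wider error.

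Fos itself, the founding member of the family and a standard readout of a serum or handling response, read 285 and 246 on the BMP-2 arrays, against 270 and 188 on the untreated arrays. The ranges overlapped, with the lowest value on the untreated array numbered 2. The difference was 0.23 ± 0.21 log2 (SE, adjusted p = 1.00), a fold of 1.18 with an interval of 0.847 to 1.63. Within arrays of the same number the differences were 0.08 log2 for number 1 and 0.39 log2 for number 2. Leaving out the untreated array numbered 2 gave -0.03 log2 and leaving out that numbered 1 gave 0.50, while without the BMP-2 array numbered 1 it was 0.13.

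Fosb, whose product is closest to FOS in domain layout, read 62.5 and 64.1 on the BMP-2 arrays, against 39.6 and 53.0 on the untreated arrays. The groups did not overlap, but both untreated values lay below the signal limit of 53.0 and the difference of 0.47 ± 0.40 log2 (SE, adjusted p = 1.00) had an interval of -0.43 to 1.36. It was 0.26 log2 without the untreated array numbered 1 and 0.68 without that numbered 2. Fosl2 encodes FRA-2, the other FOS protein with a weak activation domain. Its brighter probe set read 122 and 157 on the BMP-2 arrays and 123 and 84.4 on the untreated arrays. The groups overlapped, since the arrays numbered 1 differed by -0.02 log2 and those numbered 2 by 0.89 log2. The overall difference was 0.44 ± 0.28 log2 (SE, adjusted p = 1.00). With 1 array left out it ran from 0.16 log2, without the untreated array numbered 2, to 0.71, without the untreated array numbered 1, and was 0.26 without the BMP-2 array numbered 2. The dimmer Fosl2 probe set, not tested, read 6.95 and 2.63 on the BMP-2 arrays, against 23.7 and 1.70 on the untreated arrays, far below the limit on all 4.

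In the JUN family, the partners of FOS proteins in AP-1, signs were mixed. Of its 4 tested probe sets 1 was higher and 3 were lower with BMP-2, with a median of -0.02 log2 and a range of -0.30 to 0.10. Jun, which encodes the main activating JUN protein and is known to be activated by AP-1 at its own promoter, read 232 and 223 on the BMP-2 arrays, against 220 and 244 on the untreated arrays, with its brighter probe set. The treated values lay between the untreated ones. The difference was -0.03 ± 0.18 log2 (SE, adjusted p = 1.00), with an upper limit of 1.29-fold, and ran from -0.10 to 0.05 log2 with 1 array left out. The dimmer Jun probe set read 76.7 and 82.6 on the BMP-2 arrays, against 91.4 and 105 on the untreated arrays. It was the only tested member whose treated arrays both lay below both untreated arrays, at -0.30 ± 0.29 log2 (SE, adjusted p = 1.00). With 1 array left out it ran from -0.40, without the untreated array numbered 1, to -0.20, without that numbered 2.

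Junb, an immediate-early gene whose product is a weaker activator than JUN and can oppose it, read 423 and 400 on the BMP-2 arrays, against 389 and 445 on the untreated arrays. The treated values again lay between the untreated ones, and the difference was -0.02 ± 0.15 log2 (SE, adjusted p = 1.00), with an interval of 0.788-fold to 1.24-fold, and ran from -0.11 to 0.08 log2 with 1 array left out. Jund, the JUN gene that is expressed in most cells at rest and responds least to growth factors, read 4329 and 4470 on the BMP-2 arrays, against 4037 and 4183 on the untreated arrays with its brighter probe set. Both treated arrays lay above both untreated arrays, by 0.10 log2 for each number. This was the most precise value among the members, at 0.10 ± 0.08 log2 (SE, adjusted p = 1.00), with an interval of 0.951-fold to 1.21-fold and a range of 0.07 to 0.12 log2 with 1 array left out. The dimmer Jund probe set, just under the limit for testing with a mean log2 signal of 5.71, read 43.2 and 68.6 on the BMP-2 arrays, against 41.5 and 62.0 on the untreated arrays, a difference of 0.10 log2. The member just above that limit was Fosb, with a mean log2 signal of 5.75.

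Of the EGR members, both tested probe sets were slightly higher with BMP-2. Egr4, an EGR gene that is not a member, was lower, at -0.53 log2, and is given with the lists below. Egr1, the zinc finger factor that is a common readout of ERK activity, read 2768 and 1859 on the BMP-2 arrays, against 2502 and 1858 on the untreated arrays. The groups overlapped almost wholly, and the values went with the array number. The differences were 0.15 log2 between the arrays numbered 1 and 0.00 log2 between those numbered 2. The overall difference was 0.07 ± 0.18 log2 (SE, adjusted p = 1.00), a fold of 1.05 with an interval of 0.794 to 1.39. It was -0.14 log2 without the untreated array numbered 2 and -0.21 without the BMP-2 array numbered 1, but 0.29 without the untreated array numbered 1 and 0.36 without the BMP-2 array numbered 2 (limma unadjusted p = 0.0107, adjusted p = 0.549). Each of these fits has unequal numbers between the groups.

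Egr3, known in lymphocytes as a target of calcium signalling through NFAT, read 167 and 202 on the BMP-2 arrays, against 166 and 154 on the untreated arrays. The lowest treated value, 166.65, stood just above the highest untreated value, 166.191, so the groups did not overlap by less than 1 signal unit. The difference was 0.20 ± 0.21 log2 (SE, adjusted p = 1.00), with 0.00 log2 between the arrays numbered 1 and 0.39 log2 between those numbered 2, and ran from 0.06 without the BMP-2 array numbered 2 to 0.34 without that numbered 1. The dimmer Egr3 probe set, not tested, read 2.23 and 12.5 on the BMP-2 arrays and 17.3 and 15.8 on the untreated arrays. Both treated values lay below both untreated ones, a difference of -1.65 log2, with all values far below the limit for testing. Egr2, a factor best known for its role in hindbrain segments and myelinating Schwann cells, read 30.5 and 56.0 on the BMP-2 arrays, against 37.2 and 44.8 on the untreated arrays with the brighter of its probe sets. The other read 1.28 to 3.03 on the BMP-2 arrays and 1.43 to 6.69 on the untreated arrays. Neither allows a statement on Egr2, whose promoter stretch above holds both a CArG box and a cyclic AMP element core.

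**Figure D2:**
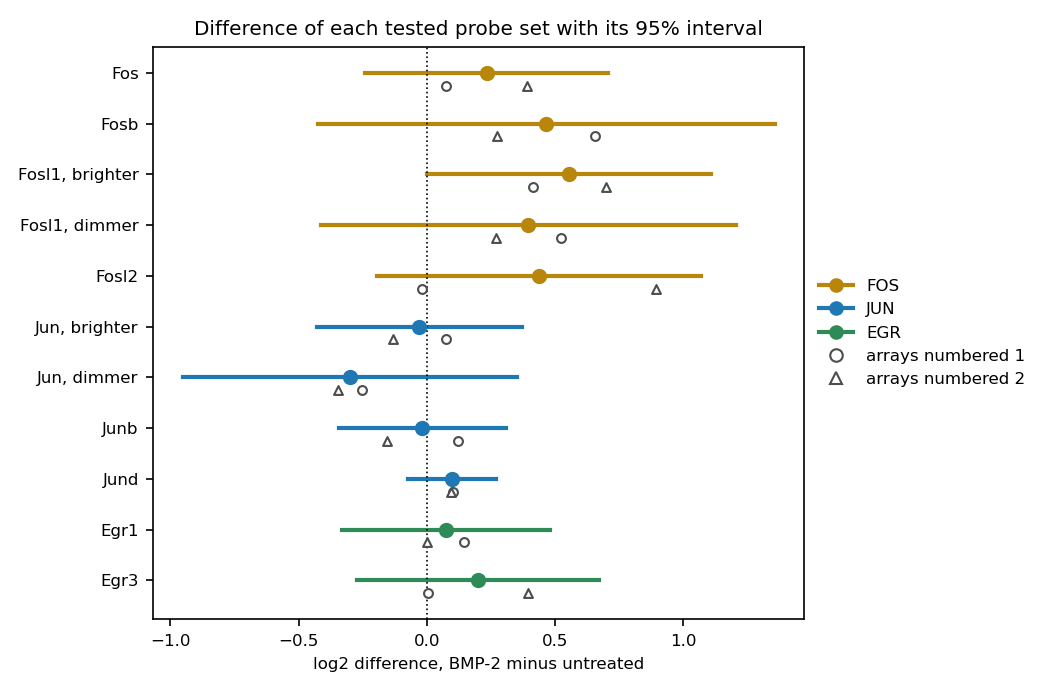
Log2 difference between BMP-2 and untreated arrays (horizontal axis) for the 11 tested probe sets, with filled points for the limma estimate, bars for its 95% interval and open symbols for the difference between arrays of the same number. All intervals hold 0 except that of the brighter Fosl1 probe set, whose lower limit is at 1.00-fold.

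The signals of the 2 groups did not overlap for 6 of the 11 tested probe sets, with 5 higher and 1 lower, where this held for 28.4% of all tested probe sets (15.9% higher and 12.5% lower). The 5 were Fosb, both of Fosl1, Jund and Egr3, and the Egr3 and Jund gaps were small. Fosb is counted here although only its treated signals lay above the limit for testing. Between arrays of the same number 7 of the 11 were higher with BMP-2 for both numbers, where 27.1% of all tested probe sets were, and these were the 5 above with Fos and Egr1. Only the dimmer Jun probe set was lower for both. Probe sets of the same gene measure the same RNA on the same arrays, and all 11 share the 4 arrays, so these counts do not add up as independent evidence.

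The intervals limit the difference only as far as these arrays spread. That spread may be technical, so they do not bound a response in other cultures. The upper limits were 1.21-fold for Jund, 1.24-fold for Junb, 1.29-fold for Jun, 1.39-fold for Egr1, 1.59-fold for Egr3, 1.63-fold for Fos, 2.10-fold for Fosl2 and 2.16-fold for Fosl1 on the brighter or single probe sets. For the dimmer Fosl1 probe set the limit was 2.31-fold, and for the dim Fosb probe set it was 2.56-fold. To pass the adjusted threshold at its own SE, a probe set would have needed a difference of 1.54-fold for Jund, 2.27-fold for Junb, 2.77-fold for Egr1, 3.27-fold for Fos and 9.35-fold for Fosb. These limits and needed differences come from the fit without array number as a block. With that block Egr1 differed by the same 0.07 log2 (limma unadjusted p = 0.407, against 0.696 without it). A rise that had ended before 1 h was not measured.

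Egr1 differed more between arrays of different number than between treatments. The arrays numbered 2 lay below those numbered 1, with log2 differences of -0.57 among BMP-2 arrays and -0.43 among untreated arrays. Both differences are larger than the treatment difference of 0.07 log2. Among the 6589 tested probe sets with a mean signal above 1024, 8 (0.121%), Egr1 among them, were at least 0.43 log2 lower on number 2 in both groups, and 25 (0.379%) differed by that much in the same direction in both groups. Over all 27022 tested probe sets, 78 (0.289%) were at least as far below as Egr1 in each group. The level of 1024 and these counts were chosen after the Egr1 values were seen. Fos was also lower on number 2 in both groups, with differences of -0.21 log2 among BMP-2 arrays and -0.52 among untreated arrays, while the brighter Jun and Fosl2 probe sets, Junb and Egr3 took opposite signs in the 2 groups. Over all 11 tested members 2 were lower and 5 higher on number 2 in both groups, against 21.7% lower and 36.8% higher of all tested probe sets. What the number stands for is not given, so its part in the Egr1 values was not tested.

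**Figure D3:**
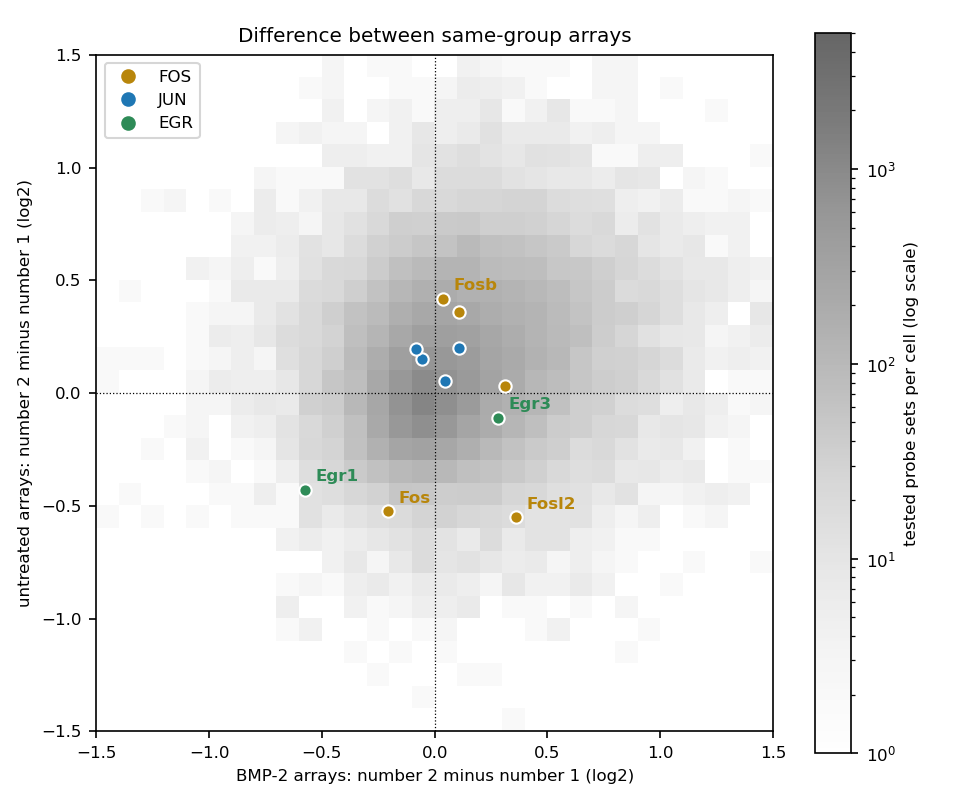
Log2 difference of the array numbered 2 minus the array numbered 1 among BMP-2 arrays (horizontal axis) and among untreated arrays (vertical axis), for tested AP-1 and EGR probe sets (coloured points) over the density of all 27022 tested probe sets (grey, log scale). Egr1 lies at -0.57 and -0.43 and Fos at -0.21 and -0.52, both lower on number 2 in each group, and Fosl2 lies at 0.36 and -0.55.

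Distances were taken between log2 signals on the 4 arrays, with each probe set centred on its own mean. Nearest to Egr1 among 12975 genes was Cebpd, which encodes a C/EBP transcription factor, at a root mean square distance of 0.016 log2. Itga6, an integrin subunit, lay at 0.019 and Selenok, a selenoprotein, at 0.020. Cebpd read 445 and 298 on the BMP-2 arrays, against 398 and 291 on the untreated arrays, the same split by array number as Egr1. A total of 50 genes lay within 0.1 log2 of Egr1. The nearest to Fos were Nfkbil1, Srpk1 and Otud7a, at 0.027 to 0.042 log2, with 139 genes within 0.1. Those nearest to Jund were Rad50, Mmut and Zc3h8, at 0.0054 to 0.0077 log2, but 4506 genes lay within 0.1 of its nearly flat values. Over 4 arrays such likeness is a description only.

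Genes around AP-1 and EGR were read from 7 companion lists, with 1 probe set a gene. Of 113 distinct genes tested 0 passed the adjusted threshold, and 6 (5.31%) had an unadjusted p under 0.05, against 3.07% of all tested probe sets. Trib1, among the 6, passed the signal limit only through its untreated arrays. The groups did not overlap, higher or lower with BMP-2, for 1 and 0 of 13 AP-1 partners, 2 and 1 of 4 EGR-related genes, 9 and 7 of 41 other immediate-early genes, 5 and 2 of 19 SRF and ERK pathway genes, 3 and 1 of 17 serum-response targets, 0 and 1 of 11 AP-1 targets and 0 and 0 of 13 stress genes. Over all tested probe sets these shares are 15.9% and 12.5%. Among partners of FOS and JUN in AP-1-like dimers (ATF, BATF, MAF and CNC proteins) 7 of 13 tested genes were higher and 6 lower, with a median of 0.07 log2. Atf2, a CREB-related partner of JUN, differed by 0.13 log2 and Nfe2l2, the regulator of the oxidant response, by 0.10. The stress gene Atf3 differed by -0.52 ± 0.45 log2 and the small MAF gene Maff by 0.79 ± 0.66 log2 (SE). Maff read 125 and 56.3 on the BMP-2 arrays, against 104 and 22.6 on the untreated arrays. Maff passed the signal limit only through its treated arrays. It was 1 of 4 partners lower on number 2 in both groups, while 2 were higher in both and 7 took opposite signs. Of the list of Egr4, Wt1 and the EGR co-repressors Nab1 and Nab2, 2 genes were higher and 2 lower, with a median of 0.04 log2. Egr4, the fourth EGR gene, read 108 and 96.8 on the BMP-2 arrays, against 152 and 143 on the untreated arrays, without overlap (-0.53 ± 0.24 log2, SE, limma adjusted p = 1.00). Nab1 differed by 0.17 log2 on its brighter probe set and by -0.11 on the other, Wt1 by 0.10 and Nab2 by -0.01.

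Among 41 other immediate-early genes 19 were higher and 22 lower with BMP-2, with a median of -0.02 log2, and 5 (12.2%) had an unadjusted p under 0.05, against 3.07% of all tested probe sets. Besides the genes below, the fifth was Socs3, a STAT3 feedback gene named after its value was seen, at -0.27 log2. The 4 smallest p-values were those of Dusp5, Trib1, Dusp6 and Btg1. Dusp5, a nuclear phosphatase of ERK, read 575 and 482 on the BMP-2 arrays, against 294 and 301 on the untreated arrays (0.82 ± 0.15 log2, SE, limma adjusted p = 0.423). Dusp6, a cytoplasmic ERK phosphatase, read 3109 and 2864 on the BMP-2 arrays and 2583 and 2105 on the untreated arrays (0.36 ± 0.11 log2, SE, adjusted p = 1.00). Trib1, a pseudokinase gene, read 34.3 and 78.7 on the BMP-2 arrays, against 119 and 195 on the untreated arrays (-1.55 ± 0.42 log2, SE, adjusted p = 1.00). The mean log2 signal of its treated arrays lay below the limit, so Trib1 was tested only through its untreated arrays. It is still counted among the 5 and among the 7 lower without overlap. Btg1, an antiproliferative gene, differed by 0.27 log2 on its brighter probe set and by 0.05 on the other. The widely used immediate-early genes Ier2, Nr4a1, Dusp1 and Myc, named here after their values were seen, differed by 0.00, -0.14, -0.16 and -0.06 log2. These 4 do not stand for the list, in which 9 genes were higher and 7 lower with BMP-2 without overlap.

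Among SRF, its ternary complex factors and the ERK pathway upstream of Fos and Egr1, 12 of 19 genes were higher and 7 lower, with a median of 0.05 log2. The ternary complex factor gene Elk1 differed by 0.32 ± 0.23 log2 on its brighter probe set and by -0.31 on the other, the RAS activator Sos2 by 0.49 ± 0.23, the adaptor Shc1 by -0.15 and Creb1 by 0.15. Downstream, 10 of 17 cytoskeletal genes known as SRF and serum-response targets were higher and 7 lower, with a median of 0.02 log2. Tgfb1i1, which encodes the focal adhesion protein HIC-5, read 152.3 and 152.4 on the BMP-2 arrays, against 94.5 and 94.2 on the untreated arrays (0.69 ± 0.24 log2, SE, adjusted p = 1.00), while Flna, Myl9 and Zyx differed by -0.12, -0.14 and -0.15. Of 11 tested AP-1 targets 6 lay above 0 and 5 below, with a median of 0.01 log2, and the 4 with the smallest p were Cd44 at -0.32 ± 0.36, Lgals1 at -0.06, Fth1 at -0.04 and Lgals3 at 0.06. Heat shock and dissociation stress genes, which respond to handling, gave 8 higher and 5 lower of 13, with a median of 0.00 log2. Hspa1a, the inducible HSP70 gene, differed by 0.37 ± 0.31 log2, Ddit3 by 0.26 ± 0.26, Hspb1 by -0.05 and Hspd1 by 0.05.

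**Figure D4:**
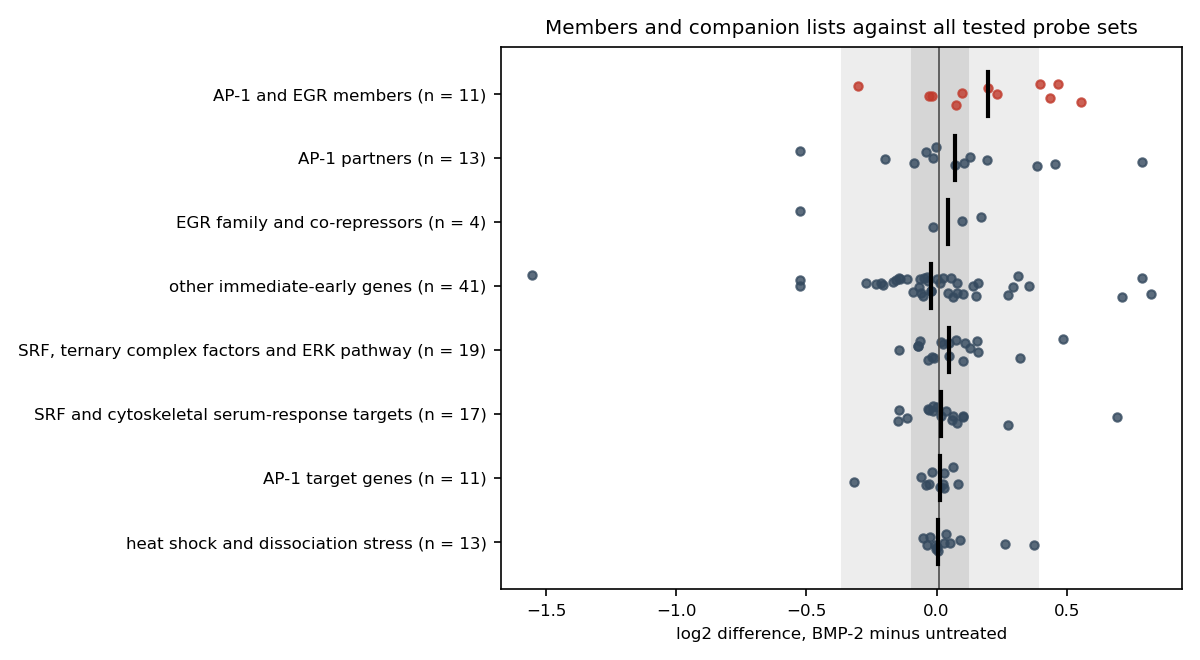
Log2 difference between BMP-2 and untreated arrays (horizontal axis) for the tested AP-1 and EGR probe sets (top row) and the genes of the 7 companion lists, with black bars for medians and grey bands for the 25th to 75th and 5th to 95th percentiles of all tested probe sets. The median of the members lies at 0.20 log2, and those of the lists lie between -0.02 and 0.07 log2.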

How the data were processed

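RNA from 4 samples (2 BMP-2, 2 untreated, grouped by title) was labelled with biotin as cRNA, per the labels' protocols. The authors deposited a linear intensity for each probe set, computed by MAS5 according to the submitters' processing notes, and no version is given in the sources used here. Their 2%-trimmed mean is 500.0 on each array, so a scaling within arrays was read from the values. Dim signals vary widely after a log transform, and detection calls were not used here.

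The log2 of each signal was fitted without pseudocount or further normalization, since array medians lay within 0.21 log2, under a limit of 0.3. After 64 control probe sets were left out, the 27022 with a mean log2 signal above the 40th percentile were fitted with limma 3.58.1 in R 4.3.3 (lmFit, eBayes with an intensity trend, 2 residual and 7.98 prior degrees of freedom), two-sided, with Benjamini-Hochberg adjustment over all of them. With 2 arrays a group, label permutations of one gene cannot reach 0.05, so none were run. The code was tested on simulated data.

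Members and lists were chosen with earlier results of these data known. Named genes were all member probe sets, up to 4 genes of each list by smallest p, the 3 nearest in pattern to the brightest member of each family, and genes past the threshold. Ier2, Nr4a1, Dusp1, Myc and Socs3 fall outside this rule and were named after their values were seen. List genes were read on their brightest tested probe set. Alternatives changed the scaling (quantile normalization, median centring), the pseudocount (25.4), the filter (none, or the 60th percentile), the intensity trend, the replicate block, the arrays used (each left out), the threshold (0.1) and the summary per gene (probe sets averaged).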

Additional observations from a re-analysis of the deposited data

How the results depend on the processing

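None of the tested AP-1 and EGR probe sets passed the adjusted threshold in any alternative run, with 6 to 16 of them tested, and their median difference stayed above 0, at 0.09 to 0.26 log2. The count over all probe sets moved more: 17 with median centring (12 higher, 5 lower), 8 with the 60th percentile filter, 0 without an intensity trend (1023 at an unadjusted p under 0.05), 11 with an adjusted p of 0.1, 11 with the replicate number as a block, and 16 to 141 when an array was left out, which leaves 1 array in a group that is assumed to vary like the other. The block changed no call on a member. With 2 pairs the numbers cannot be shown to pair the samples, and number differences of the 2 groups correlated at 0.15 over probe sets. Of 116 single probe set values under alternatives 110 kept their sign. The exceptions came from leaving out 1 array, where values ran from -0.029 to 0.50 log2 for Fos, -0.10 to 0.046 for the brighter Jun probe set, -0.11 to 0.079 for Junb and -0.21 to 0.36 for Egr1. Without the untreated array numbered 2 these were -0.029, 0.046, 0.079 and -0.14. Junb was 0.024 without the BMP-2 array numbered 2, and Egr1 -0.21 without the BMP-2 array numbered 1. The cause was not tested.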
